A study of Mus musculus with 6 samples.

Results

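Aminoacyl-tRNA synthetases are the enzymes that join each amino acid to its transfer RNA. The genes described here are those of the mRNA table whose symbol names such an enzyme or one of the scaffold proteins that hold several of them together. There were 39 of them among 11609 mRNA genes. They comprised 20 genes of cytosolic enzymes, 16 of mitochondrial enzymes, whose symbols end in 2, and the 3 scaffold genes Aimp1, Aimp2 and Eef1e1. Aimp2 also ends in 2 but codes for a cytosolic scaffold protein, and was kept with the scaffold genes. Symbols follow the deposited tables.

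RNA came from N2a cells, an established mouse neuroblastoma line, which in both groups had first been differentiated with 10 µM retinoic acid for 96 h in medium with 2% serum. The 3 DMSO libraries are from cells given solvent, and the 3 RSL3 libraries from cells given 5 µM RSL3 for 24 h. RSL3 inactivates the glutathione peroxidase GPX4 and sets off ferroptosis, a death driven by lipid peroxides. The comparison asks how messenger RNAs for charging transfer RNA differ between RSL3 and DMSO in these neuron-like cells. Whether ferroptosis took place in these cultures was not tested. No label says that replicates are separate cultures, so the p-values measure a difference against the spread between these libraries.

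Cytosolic synthetases supply the ribosomes that translate nuclear messages, and the mitochondrial enzymes, also encoded in the nucleus, supply the ribosomes that translate the few messages of mitochondrial DNA. In most cases a separate gene serves each compartment, while Gars and Kars each code for both forms of their enzyme. In animal cells 8 of the cytosolic enzyme genes code for parts of the multisynthetase complex, which Aimp1, Aimp2 and Eef1e1 hold together. Many cytosolic synthetase genes are known targets of ATF4, the transcription factor of the amino acid response, which binds the C/EBP-ATF response element.

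That element was looked for in the promoters, since the cytosolic genes moved together in these data. Its core was searched as TGATGNAA on both strands in windows of 300 bases from RefSeq (build GRCm38.p6), 250 before the start site and 50 from it onward, so that base 251 is the start. A window was found for 29 of the 39 genes. The core was present in 5 of 12 cytosolic genes (41.7%), in 0 of 14 mitochondrial genes and in 0 of 3 scaffold genes, against 4.51% of 27025 mouse genes with such a window. The 5 windows are shown 5′ to 3′ along the gene, with the core in capitals, because they are the cytosolic promoters that hold it. In Yars the core reads forward along the gene, and in the other four it lies on the opposite strand and so appears in reverse complement.

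Aars, chr8:111033592-111033891, plus strand: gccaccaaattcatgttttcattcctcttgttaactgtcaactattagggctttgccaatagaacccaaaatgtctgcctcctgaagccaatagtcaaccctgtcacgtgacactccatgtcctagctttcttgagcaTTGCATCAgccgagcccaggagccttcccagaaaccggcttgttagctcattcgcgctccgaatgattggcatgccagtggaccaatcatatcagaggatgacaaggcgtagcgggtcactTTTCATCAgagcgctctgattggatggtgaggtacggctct
Gars, chr6:55037751-55038050, plus strand: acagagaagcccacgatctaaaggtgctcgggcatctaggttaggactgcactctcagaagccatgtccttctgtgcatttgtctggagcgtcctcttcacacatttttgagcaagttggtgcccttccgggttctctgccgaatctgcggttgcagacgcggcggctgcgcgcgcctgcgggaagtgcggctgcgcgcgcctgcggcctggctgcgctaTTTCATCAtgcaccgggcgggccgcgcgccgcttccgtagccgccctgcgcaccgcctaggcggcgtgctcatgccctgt
Iars, chr13:49681880-49682179, plus strand: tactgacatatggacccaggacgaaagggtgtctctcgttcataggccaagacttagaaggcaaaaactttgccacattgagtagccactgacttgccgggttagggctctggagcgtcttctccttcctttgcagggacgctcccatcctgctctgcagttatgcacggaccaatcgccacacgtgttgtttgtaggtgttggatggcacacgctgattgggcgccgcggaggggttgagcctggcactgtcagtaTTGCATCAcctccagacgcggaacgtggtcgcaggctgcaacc
Tars, chr15:11399609-11399908, minus strand: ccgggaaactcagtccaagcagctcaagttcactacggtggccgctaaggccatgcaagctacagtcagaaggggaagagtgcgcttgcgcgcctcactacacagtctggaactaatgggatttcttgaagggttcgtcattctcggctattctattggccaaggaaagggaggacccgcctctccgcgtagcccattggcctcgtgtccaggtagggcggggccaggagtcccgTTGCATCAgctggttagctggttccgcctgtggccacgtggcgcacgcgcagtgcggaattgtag
Yars, chr4:129189653-129189952, plus strand: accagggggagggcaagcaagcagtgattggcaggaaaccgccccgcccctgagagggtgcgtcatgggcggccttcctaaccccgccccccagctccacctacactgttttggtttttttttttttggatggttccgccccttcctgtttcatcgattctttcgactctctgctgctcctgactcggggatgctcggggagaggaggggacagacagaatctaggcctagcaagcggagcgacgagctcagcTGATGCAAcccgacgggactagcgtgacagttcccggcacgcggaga

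The core begins at base 221 of the window in Gars, 236 in Tars, 254 in Yars and 258 in Iars. Aars holds it at bases 139 and 260. The narrower TGATGCAA was found in 4 of the 12 cytosolic genes with a window and in 1.03% of all genes with one. A match describes letters and does not show that a factor binds there.

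Before the comparison, the libraries differed in ways that bear on it. Summed mRNA values ran from 220605 to 225295 FPKM (fragments per kilobase of transcript, scaled to the library's mapped fragments) with DMSO and from 200135 to 213765 with RSL3, and RSL3 replicate 1 was the lowest. Read depth is unknown, because FPKM does not keep it. Of 12 neuron or neuroblast markers 9 were listed. The highest were the neuronal tubulin gene Tubb3 at a mean of 116 FPKM and Hand2, a factor of sympathetic neuroblasts, at 119 FPKM under DMSO. The lowest listed were Map2, Mycn and Elavl4, at means of 2.56, 5.83 and 6.39 FPKM under DMSO, and Nefl, Nefm and Dcx were not listed. The summed level of the 9, to which Tubb3 and Hand2 added most, ran from 337 to 344 FPKM under DMSO and from 290 to 318 FPKM under RSL3. The 10 liver markers, led by Alb, were all listed, with sums of 60.0 to 83.2 FPKM under DMSO and 14.99 to 25.8 FPKM under RSL3. Of 4 markers each, astrocyte genes had 0 listed, and microglia, oligodendrocyte and fibroblast genes had 1 listed, with sums between 0.140 and 4.39 FPKM. The lncRNAs Gm26917 and Gm42418 of the ribosomal RNA locus summed to 18790 to 22980 FPKM under DMSO and to 26640 to 33130 FPKM under RSL3. The part of the liver transcripts and of these lncRNAs in the results below was not tested. In RNA from whole cultures, fewer cells of a type and less RNA per cell cannot be told apart.

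The cytosolic synthetase genes stood lower with RSL3 almost throughout, and the mitochondrial genes did not move with them. In limma, on log2(FPKM + 1) of 10590 tested genes with Benjamini-Hochberg adjustment, 4 of the 20 cytosolic genes fell at an adjusted p under 0.05 and 0 rose. Over all tested genes 6.38% passed, 3.92% downward and 2.46% upward, and 6.64% fell among the 3988 tested genes whose mean level lay within the range of the cytosolic set, 10.5 to 286 FPKM. At an unadjusted p under 0.05, 15 of the 20 were lower, where 14.3% of all tested genes were. A further count needs no model: in 17 of the 20, each RSL3 library lay below each DMSO library. Such a separation downward was seen in 19.6% of tested genes and in 28.7% of those 3988, and a separation either way in 33% of tested genes. The median log2 fold change of the cytosolic set was -0.27, against -0.03 for all tested genes and -0.07 for those 3988. Without RSL3 replicate 1 the number that fell was 10, where 7.18% of all tested genes fell. Without any single DMSO library the number was 0, where 0.799% to 0.999% of all tested genes fell. The median of the set stayed between -0.29 and -0.24 in all 6 fits that leave out a library. After quantile normalization 0 passed, with a median of -0.20, and over all genes 350 were then higher and 329 lower, in place of 261 and 415.

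**Figure D1:**
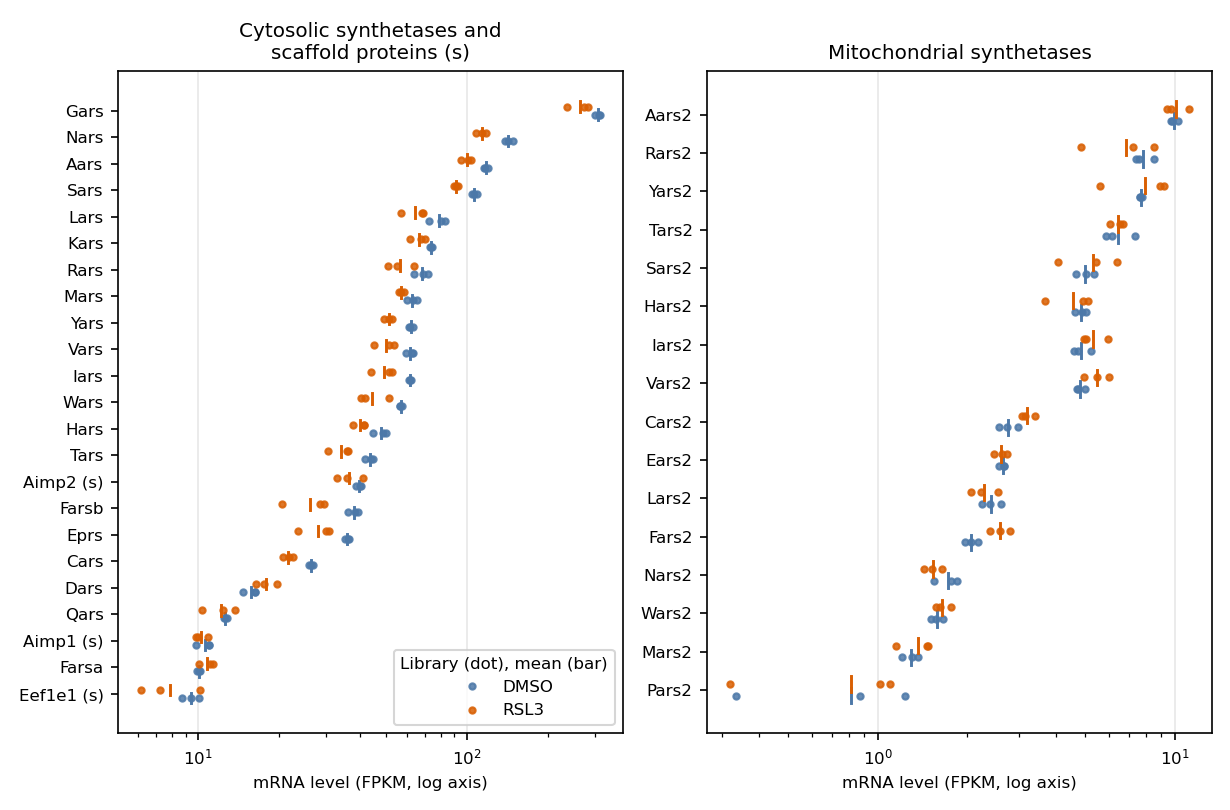
mRNA level of each gene in each library (dots) with the group means (vertical bars), in FPKM on a log axis, cytosolic and scaffold genes on the left and mitochondrial genes on the right, ordered by the DMSO mean. The RSL3 dots lie below the DMSO dots in 17 of the 20 cytosolic genes, and the mitochondrial genes sit at lower levels with mixed order.

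Nars, the asparaginyl-tRNA synthetase gene (ENSMUSG00000024587 in the GENCODE annotation, chromosome 18, 64499647 to 64516652, minus strand), had the smallest p of the cytosolic set. It stood at 148, 142 and 138 FPKM under DMSO and at 108, 118 and 114 FPKM under RSL3. The groups did not overlap, and the fold change was 0.79 (log2 fold change -0.33 ± 0.06 SE, adjusted p = 0.0227 in limma). Yars, for tyrosine (chromosome 4, 129189760 to 129219607, plus strand), stood at 61.2, 63.3 and 61.7 FPKM under DMSO and at 49.3, 51.3 and 52.9 FPKM under RSL3. All RSL3 libraries were lower, and the log2 fold change was -0.27 ± 0.06 SE (adjusted p = 0.0346 in limma). Its promoter is among those shown with the ATF4 core.

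Cars, for cysteine (chromosome 7, 143557230 to 143600090, minus strand), had 26.8, 25.8 and 26.4 FPKM under DMSO and 20.8, 21.7 and 22.5 FPKM under RSL3. The separation was complete, with a log2 fold change of -0.27 ± 0.06 SE (adjusted p = 0.0473 in limma). Sars, for serine (chromosome 3, 108424865 to 108445209, minus strand), had 110, 105 and 106 FPKM under DMSO and 92.4, 91.1 and 89.6 FPKM under RSL3. Again no library of one group entered the range of the other (log2 fold change -0.23 ± 0.05 SE, adjusted p = 0.0480 in limma). When each library in turn was left out, Nars passed in 2 of 6 fits and the others in 1 each. With median-ratio scaling 5 genes passed, of which Nars and Yars are among these 4. In that fit 3.62% of all tested genes fell.

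The largest difference of the set was that of Farsb, the beta subunit of phenylalanyl-tRNA synthetase, which did not pass. It stood at 38.2, 39.4 and 36.3 FPKM under DMSO and at 20.6, 29.4 and 28.5 FPKM under RSL3 (log2 fold change -0.54 ± 0.13 SE, adjusted p = 0.0576 in limma). RSL3 replicate 1 was the lowest by a wide margin, and without it the log2 fold change was -0.38 and passed (adjusted p = 0.0110 in limma). The alpha subunit gene Farsa, whose product joins that of Farsb in equal number to form the enzyme, stood at 9.97, 10.2 and 10.1 FPKM under DMSO and at 11.4, 10.1 and 11.1 FPKM under RSL3 (log2 fold change 0.09, adjusted p = 0.477 in limma). Farsb was thus 3.77 ± 0.16 times as high as Farsa with DMSO and 2.43 ± 0.57 times with RSL3 (SD, n = 3; exact permutation test, two-sided, p = 0.1, the smallest that 3 against 3 allows). This ratio was chosen after its values were seen. Exons of Farsb share 248 bases with Sgpp2 on the opposite strand.

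Dars, for aspartate, was the cytosolic gene with the highest log2 fold change. It stood at 16.4, 16.4 and 14.7 FPKM under DMSO and at 16.5, 19.7 and 17.6 FPKM under RSL3. The groups were separated narrowly upward, and the gene did not pass (0.17 ± 0.09 SE, adjusted p = 0.273 in limma). With trends on transcript length and GC content removed from each library it did, at 0.29 (adjusted p = 0.0399 in limma), while 13 cytosolic genes fell. Of all tested genes 7.57% then rose and 9% fell. Qars, for glutamine, was the other gene whose groups overlapped beside Farsa, at 12.5 to 12.9 FPKM under DMSO and 10.3 to 13.7 FPKM under RSL3.

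The other 12 cytosolic genes each stood lower in all RSL3 libraries than in any DMSO library without passing. Their log2 fold changes ran from -0.35 for Eprs, the fused glutamyl- and prolyl-tRNA synthetase, to -0.13 for Mars, for methionine. Gars, for glycine, had the highest level of the 20, with 299, 313 and 311 FPKM under DMSO and 237, 273 and 282 FPKM under RSL3 (log2 fold change -0.23, adjusted p = 0.130 in limma). After quantile normalization it stood at -0.04. Tars, for threonine, and Iars, for isoleucine, stood at -0.35 (adjusted p = 0.0526) and -0.32 (adjusted p = 0.0566 in limma). Wars, for tryptophan, stood at 56.5, 57.2 and 56.4 FPKM under DMSO and at 40.3, 41.7 and 51.5 FPKM under RSL3, so that replicate 3 came closest to the controls.

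**Figure D2:**
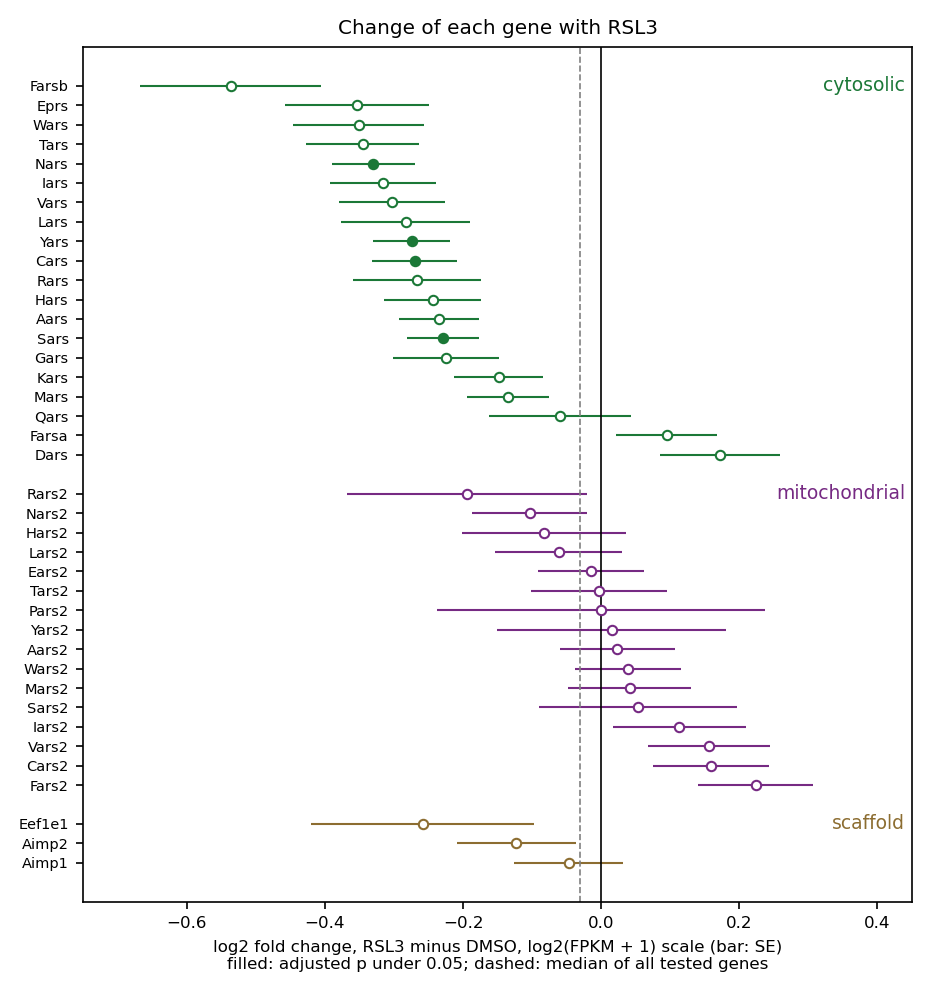
Log2 fold change of each gene, RSL3 minus DMSO on the log2(FPKM + 1) scale, with the SE of the limma fit, for the cytosolic, mitochondrial and scaffold sets; filled circles have an adjusted p under 0.05 and the dashed line is the median of all tested genes. The 4 filled circles are Nars, Yars, Cars and Sars, and 18 of the 20 cytosolic genes lie left of 0 while the mitochondrial genes spread around it.

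Grouping the cytosolic genes by the complex they serve, a step added after the values were seen, is given as a description. The 8 enzymes of the multisynthetase complex had a median log2 fold change of -0.21, with 6 separated downward and 0 past the threshold. The 12 other genes had a median of -0.27, with 11 separated downward and 4 past the threshold. The difference between these groups was not tested. A split by the ATF4 core in the promoter was likewise added after the values were seen, and the difference between its groups was not tested. The 5 genes with the core were all separated downward, with log2 fold changes from -0.35 to -0.23 and a median of -0.27. Among the 7 with a window lacking it, 4 were separated downward and the median was -0.15, with both Farsb at -0.54 and Dars at 0.17. The 8 genes without a window in the table were all separated downward, with a median of -0.28. Beside these counts, 28.7% of tested genes in the level range of the cytosolic set were separated downward.

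The scaffold genes did not pass. Aimp1 stood at 11.04, 10.99 and 9.85 FPKM under DMSO and at 9.88, 10.9 and 9.99 FPKM under RSL3. Aimp2 stood at 40.3, 38.7 and 40.1 FPKM under DMSO and at 41.0, 32.9 and 35.7 FPKM under RSL3. Eef1e1 stood at 9.44, 10.1 and 8.71 FPKM under DMSO and at 6.15, 10.2 and 7.23 FPKM under RSL3. In each of the 3 the groups overlapped, and relative to its mean Eef1e1 had the widest spread among the RSL3 libraries, with a coefficient of variation of 26.7%. Their log2 fold changes were -0.05, -0.12 and -0.26 (adjusted p = 0.763, 0.433 and 0.379 in limma), and 0 reached an unadjusted p under 0.05.

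Of the 16 mitochondrial genes, 0 passed in limma and 1 reached an unadjusted p under 0.05. Their median log2 fold change was 0.02, and 10 stood above 0 and 6 below. Separation between the groups was seen in 2, both upward, where 13.4% of tested genes were separated upward; downward it was seen in 0. Among the 6376 tested genes within their range of mean levels, 0.813 to 10.0 FPKM, 13.7% were separated downward and 2.07% fell. Fars2, for phenylalanine, was the one with the unadjusted p under 0.05. It stood at 1.98, 2.17 and 2.06 FPKM under DMSO and at 2.59, 2.38 and 2.79 FPKM under RSL3 (log2 fold change 0.22 ± 0.08 SE, adjusted p = 0.156 in limma). Its exons share 501 bases with Nrn1 on the opposite strand. Cars2, for cysteine, was the other gene separated upward, at 2.57 to 2.97 FPKM under DMSO and 3.06 to 3.38 FPKM under RSL3. Exons of Cars2 share 422 bases with Naxd on the opposite strand.

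Rars2, for arginine, had the lowest log2 fold change of the mitochondrial set. It stood at 7.60, 8.50 and 7.398 FPKM under DMSO and at 4.84, 8.52 and 7.23 FPKM under RSL3 (-0.19 ± 0.17 SE, adjusted p = 0.547 in limma). The value rests on RSL3 replicate 1, without which the log2 fold change was 0.01. Yars2, for tyrosine, showed the same library apart, at 7.75, 7.65 and 7.63 FPKM under DMSO and at 5.61, 8.95 and 9.24 FPKM under RSL3. Pars2, for proline, was the least abundant, at 0.333 to 1.24 FPKM under DMSO and 0.319 to 1.10 FPKM under RSL3. The scale shrinks changes at such low levels; with a pseudocount of 0.1 the log2 fold changes of the mitochondrial set ran from -0.22 to 0.31 and 0 passed.

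Summed over the cytosolic enzymes, the level was 1430 ± 18.04 FPKM under DMSO and 1199 ± 64.7 FPKM under RSL3 (SD, n = 3), 0.84 times as high. The mitochondrial genes together had 66.7 ± 0.64 FPKM under DMSO and 68.0 ± 2.96 FPKM under RSL3, 1.02 times as high. All mRNA values together were 0.93 times as high with RSL3. As a share of the mRNA values, the cytosolic set made up 0.635%, 0.643% and 0.640% under DMSO and 0.562%, 0.573% and 0.588% under RSL3. These shares did not overlap either. The mitochondrial set made up 0.0295% to 0.0300% with DMSO and 0.0323% to 0.0332% with RSL3.

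**Figure D3:**
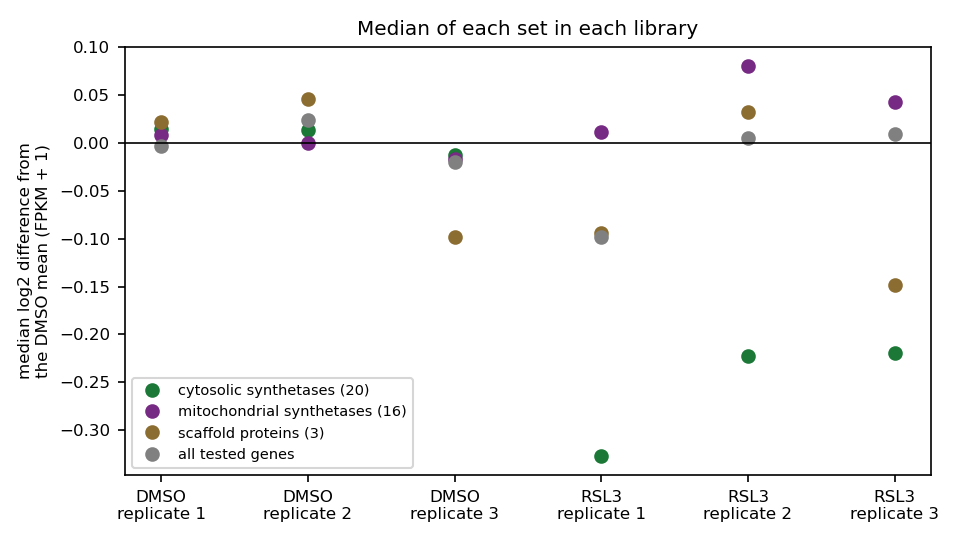
Median over each set of the log2 difference from the DMSO mean, on the log2(FPKM + 1) scale, in each of the 6 libraries; the grey points are the median over all tested genes. The cytosolic set stands at -0.33, -0.22 and -0.22 in RSL3 replicates 1, 2 and 3, and the mitochondrial set at 0.01, 0.08 and 0.04.

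Library by library, the cytosolic median stood at -0.33, -0.22 and -0.22 from the DMSO mean in RSL3 replicates 1, 2 and 3. The median over all tested genes stood at -0.10, 0.01 and 0.01 in the same libraries. RSL3 replicate 1 was the lowest of the RSL3 libraries for 16 of the 20 cytosolic genes and for 8 of the 16 mitochondrial genes. Spread within a group also differed: the median coefficient of variation of the cytosolic genes was 2.35% with DMSO and 8.87% with RSL3. For 17 of the 20 it was larger with RSL3. GC content of the transcripts had a median of 49.8% in the cytosolic and 49.4% in the mitochondrial set, and 49.97% over all tested genes.

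To compare the sets gene by gene, each mitochondrial gene was set beside the cytosolic gene for the same amino acid, which gave 16 pairs, with Eprs used for both glutamate and proline and Farsa and Farsb averaged. In DMSO the cytosolic gene was 6.74 times (Tars over Tars2) to 82.8 times (Nars over Nars2) as high as its mitochondrial partner, in FPKM, which is per length. With RSL3 the ratio was 5.32 times and 73.9 times for these pairs, and it was lower in all 16. The median over pairs of the change in the log2 difference was -0.31. In 8 pairs the RSL3 libraries lay wholly below the DMSO libraries. Each of those 8 had p = 0.1 in an exact permutation test, two-sided, the smallest that 3 against 3 allows, and 0.2 after Benjamini-Hochberg adjustment over the 16 pairs, so that 0 pairs passed and the design could not let 1 pass. Pairs share Eprs, the libraries and any trend with expression level, so they are not replicates of each other. How often other pairs of a high and a low gene separate was not computed, so the 8 of 16 have no share beside them. Tested genes in the level range of the cytosolic set had a median log2 fold change of -0.07, and those in the mitochondrial range of -0.006.

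Vars and Vars2, for valine, differed most. On the log2(FPKM + 1) scale the cytosolic gene stood above the mitochondrial one by 3.40, 3.48 and 3.42 under DMSO and by 2.96, 2.95 and 3.01 under RSL3. The change was -0.46 ± 0.03 (SE), with no overlap. The mean of Farsa and Farsb against Fars2 changed by -0.44 ± 0.08, Iars against Iars2 by -0.43 ± 0.09, and Cars against Cars2 by -0.43 ± 0.05. At the other end, Rars against Rars2 changed by -0.07 ± 0.14, with overlapping libraries; both genes were lowest in RSL3 replicate 1. Hars and Hars2 lie head to head on chromosome 18 and share 195 exon bases on opposite strands. Their difference changed by -0.16 ± 0.10, also with overlap.

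**Figure D4:**
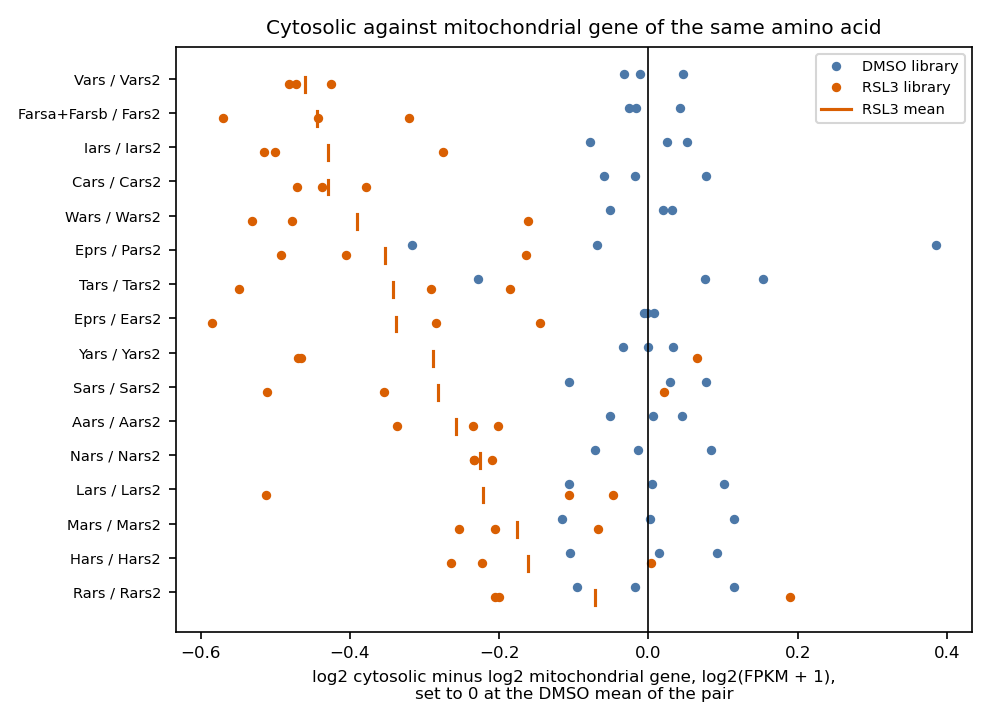
Log2 level of the cytosolic gene minus that of the mitochondrial gene for the same amino acid, on the log2(FPKM + 1) scale, in each library, with the DMSO mean of each pair set to 0 and a bar at the RSL3 mean. The RSL3 mean lies below 0 in all 16 pairs, and in 8 of them no RSL3 library reaches the DMSO range.

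Genes that act beside the synthetases were read from lists on the same fit. At an unadjusted p under 0.05, the share of all tested genes was 24.1%, with 14.3% lower and 9.86% higher, and the counts below stand beside those shares. Of 7 genes of cytosolic elongation, 1 fell and 0 rose. Eif5a, a factor that helps ribosomes past difficult peptide bonds, stood at 262, 265 and 248 FPKM under DMSO and at 192, 184 and 190 FPKM under RSL3 (log2 fold change -0.45 ± 0.06 SE, adjusted p = 0.00679 in limma). Eef1a1, which brings charged transfer RNA to the ribosome, stood at 1139 ± 30.7 and 1164 ± 142 FPKM, and Eef2, the translocation factor, at 1078 ± 10.7 and 1097 ± 45.7 FPKM (SD, n = 3). The call of Eif5a was lost without DMSO replicate 2 (adjusted p = 0.0517 in limma). Eef1b2 and Eef1d, which reload Eef1a1 with GTP, stood at 0.05 and 0.07, and the kinase gene Eef2k at -0.09. The list median was 0.02. The difference between this list and the cytosolic synthetases was not tested.

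In the tRNA maturation and export list 0 of 21 passed in limma and 5 reached an unadjusted p under 0.05, 4 of them lower, a share near that of all tested genes. Its median log2 fold change was -0.18, and 15 stood below 0. Xpot, which exports transfer RNA from the nucleus, had 65.5, 73.2 and 67.3 FPKM under DMSO and 55.1, 62.4 and 61.4 FPKM under RSL3 (-0.20, adjusted p = 0.152 in limma). Elac2, which trims the 3′ end of transfer RNA precursors, stood at -0.25 (adjusted p = 0.0910 in limma), and Rpp38 of ribonuclease P at 0.31 (adjusted p = 0.0841). Rtcb, the ligase that joins spliced transfer RNA exons, stood at -0.14 (adjusted p = 0.184 in limma).

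Of 5 tested genes of editing and proofreading 0 passed in limma and 1 reached an unadjusted p under 0.05, and their median was -0.10. It was Dtd1, which removes D-amino acids from transfer RNA, at 6.86, 6.04 and 7.22 FPKM under DMSO and 5.42, 5.56 and 5.78 FPKM under RSL3 (-0.22, adjusted p = 0.170 in limma). Its groups did not overlap. Aarsd1, an alanyl-tRNA editing gene, stood at -0.12, Ptrh2 at -0.10 and Prorsd1 at 0.09. Of the 10 mitochondrial translation factors 0 passed and 1 reached an unadjusted p under 0.05, Tufm, the elongation factor (-0.18, adjusted p = 0.109 in limma). Their median was -0.08. Mtfmt, which formylates the initiator, stood at 0.19, and Gfm1 and Gfm2 at -0.12 and -0.13. Mitochondria make glutaminyl-tRNA with an amidotransferase in place of a synthetase. Of its 3 tested genes 0 passed and 1 reached an unadjusted p under 0.05, Gatc (17.8 ± 1.00 to 13.7 ± 1.86 FPKM, SD, n = 3; adjusted p = 0.0882 in limma); Qrsl1 stood at -0.21 and Gatb at -0.01.

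**Figure D5:**
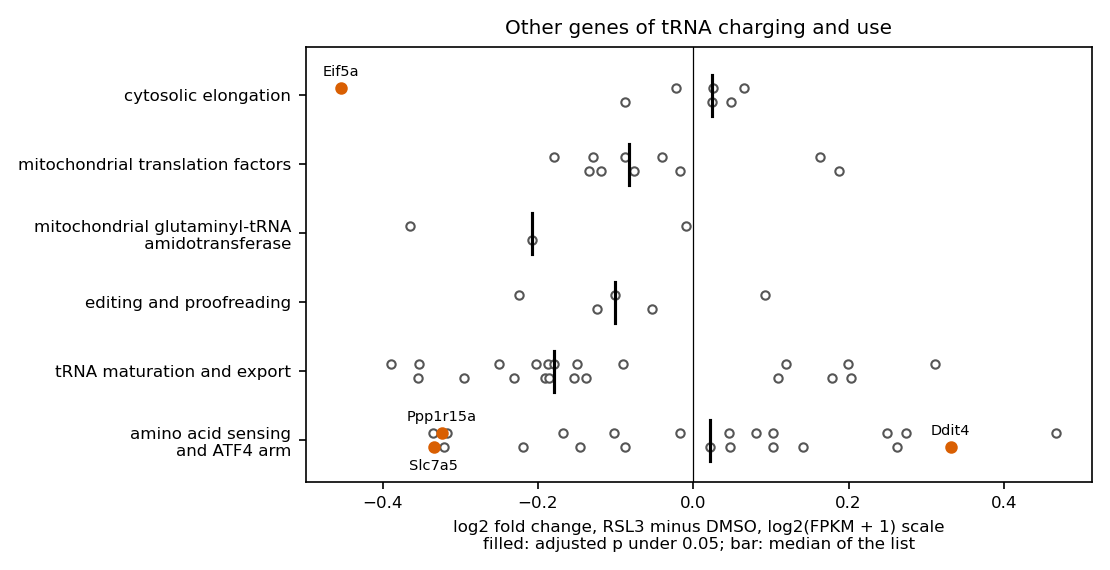
Log2 fold change (RSL3 minus DMSO, log2(FPKM + 1) scale) of the tested genes in 6 lists related to tRNA charging and use, with the list median as a bar; filled circles have an adjusted p under 0.05. Eif5a, Slc7a5 and Ppp1r15a fell and Ddit4 rose, and the tRNA maturation and export list has its median at -0.18.

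The amino acid sensing and ATF4 list did not move one way. Of 23 tested genes 1 rose and 2 fell, with a median log2 fold change of 0.02. At an unadjusted p under 0.05, 5 were lower and 2 higher. Atf4 itself stood at 428, 433 and 441 FPKM under DMSO and at 445, 437 and 439 FPKM under RSL3, in overlapping ranges (0.02 ± 0.05 SE, adjusted p = 0.841 in limma). Slc7a5, a transporter of large neutral amino acids, stood at 261, 279 and 276 FPKM under DMSO and at 218, 204 and 224 FPKM under RSL3 (-0.33 ± 0.06 SE, adjusted p = 0.0236 in limma). Its partner subunit gene Slc3a2 stood at -0.32 (adjusted p = 0.0512), with 137 to 138 FPKM under DMSO and 102 to 122 FPKM under RSL3. Ppp1r15a, which helps reverse the translation block of this pathway, stood at 61.8, 61.8 and 60.8 FPKM under DMSO and at 44.9, 50.2 and 51.8 FPKM under RSL3 (-0.32 ± 0.07 SE, adjusted p = 0.0392 in limma). Ddit4, a stress-induced inhibitor of mTORC1, stood at 112, 104 and 114 FPKM under DMSO and at 147, 131 and 138 FPKM under RSL3, with no overlap (0.33 ± 0.07 SE, adjusted p = 0.0332 in limma). Slc7a5, Ppp1r15a and Ddit4 each lost the call when any single DMSO library or RSL3 replicate 3 was left out, and Ppp1r15a also without RSL3 replicate 2 (adjusted p = 0.0506 in limma). Asns, the asparagine synthetase gene and an ATF4 target, stood at 247 to 283 FPKM under DMSO and 211 to 252 FPKM under RSL3. The serine pathway genes Shmt2 and Psat1 were lower without passing, at -0.33 and -0.32 (adjusted p = 0.0543 and 0.0818 in limma), and the transcription factor gene Cebpb was higher without passing, at 0.27 (adjusted p = 0.0814). Trib3, Ddit3 and Chac1, targets of ATF4, stood at 0.08, 0.10 and 0.14. Members of the list thus lay on both sides of 0.

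Circular RNAs gave little for these genes, in libraries whose protocols name a poly(A) module. The part of that step was not tested. Among 1414 circRNAs named by coordinates, 2 lay inside a gene of the set, 1 in Vars and 1 in Lars. Each was above 0 in 1 library, at a deposited signal of 543 in RSL3 replicate 1 and of 560 in RSL3 replicate 2, and was listed at 0 in the other 5. Those named by a circBase identifier could not be placed and were not used here. Exons of 12 of the 39 genes overlap exons of another listed gene, on the opposite strand in all but Aars, which shares 1326 bases with Exosc6 on the same strand. Iars2 shares 2034 bases with Rab3gap2, and Mars 68 bases with Ddit3, on opposite strands. The library kit keeps the strand, but no source states whether the counting used it, so the values of these 12 genes are less certain.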

How the data were processed

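The deposited mRNA and lncRNA tables give FPKM per gene and library, made by the authors with cutadapt, HISAT2 and StringTie 1.3.3 on mouse build GRCm38, per the submitters' processing notes. For the annotation release, strand setting and filters, the sources used here give nothing. For circRNAs the authors deposited a signal headed CPM. The labels' protocols name a poly(A) module and a stranded kit.

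Where 3 or more of the 6 libraries reached 1 FPKM, a gene was tested as log2(FPKM + 1). The two-sided test was limma 3.58.1 in R 4.3.3, its prior variance following the mean level, and Benjamini-Hochberg adjustment ran over all 10590 tested genes and a threshold of 0.05. The code was tested on simulated data. Fold changes on this scale understate those of low genes. Gene models were those of GENCODE M21 (GRCm38), which held 11595 of the 11609 identifiers, and promoters from RefSeq. Samples were grouped by their titles. Per-library values are given for genes past the threshold, the scaffold genes and the largest rise and fall of each set, and the 4 genes with the smallest p of each related list are named, some by fold change only; any other gene named was chosen after its values were seen. A few genes are not reported here and were left out of the lists. The genes and lists were chosen with earlier results of these data known. Alternatives were another pseudocount, other filters, scalings, no trend, length and GC correction, a replicate block and leaving out each library.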

Additional observations from a re-analysis of the deposited data

How the results depend on the processing

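The direction of the cytosolic set held in every alternative run: 17 or 18 of its 20 genes stood below 0, with medians from -0.29 to -0.20. The number past the threshold did not hold. It was 4 as reported, 8 with a filter of 5 FPKM, 1 without the variance trend and 0 with quantile normalization, all lower. Of all tested genes 3.92%, 6.2%, 3.14% and 3.11% fell in the same fits, and 2.46%, 3.13%, 2.29% and 3.31% rose. Without single libraries the number was 0 to 10, all lower. In those fits 0.799% to 7.18% of all tested genes fell and 0.447% to 4.94% rose. With length and GC trends removed the number was 14, of which 13 were lower and 1, Dars, was higher. Of all tested genes 9% were then lower and 7.57% higher. The cause was not tested. Of mitochondrial and scaffold genes 0 passed in any alternative. Over all mRNA genes 676 passed, 1753 with trends removed and 137 to 1276 without single libraries. Among the related genes 4 passed, 2 with median-ratio scaling, 2 with quantile normalization, 2 without the variance trend, 17 with trends removed, and 0 to 8 without single libraries. Pairs with separated libraries numbered 8 of 16, 2 of the 6 left by the 5 FPKM filter, and 8 to 13 of 15 or 16 without single libraries. Groups separate more easily with a library left out, so the last counts are not like the 8 of 16.

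The labels number the libraries but state no pairing, and the deviations of same-numbered libraries correlated at -0.15, 0.05 and -0.06 across genes. With the number as a replicate block, 253 mRNA genes, 0 cytosolic synthetase genes and 1 related gene passed. Of all tested genes 1.56% then fell and 0.831% rose.

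Over all alternatives the sign turned for 1 of 20 cytosolic genes (Qars), 8 of 16 mitochondrial genes and 1 of 3 scaffold genes (Aimp1). Among genes given with their values, Aimp1 stood at 0.0699 with trends removed, Rars2 ran from -0.346 (without RSL3 replicate 2) to 0.00553 (without RSL3 replicate 1) and Eef1b2 from -0.0139 to 0.112 (without the same libraries). Gatb stood at 0.0120 with median-ratio scaling and 0.0128 with trends removed, and ran from -0.100 (without DMSO replicate 2) to 0.0664 (without RSL3 replicate 1).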
